A study of Homo sapiens with 3 samples.

Results

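In human cells, a minority of tRNA genes are interrupted by an intron, and in this series their isotypes TyrGTA, IleTAT, LeuCAA and ArgTCT were followed as RNAs bound by DICER. Membership went by gene id alone. A cluster belonged to the set when the tRNA gene id on its own strand ended in 1 of these 4 names. Each name gives the amino acid and the anticodon in DNA letters. The set itself was chosen with earlier results of these data known. Which single genes of these isotypes carry an intron was not checked against an annotation. The set comprised 37 of 11577, 32 of 18065 and 23 of 5099 clusters in replicates 1, 2 and 3, and 25 of 8469 in a series-wide list. These clusters lay on 25 genes: 13 of TyrGTA, 4 of IleTAT, 3 of LeuCAA and 5 of ArgTCT. The comparison set was every other tRNA gene, with 355, 330 and 226 clusters in replicates 1, 2 and 3 on 294 genes. Ids named Pseudo, on 27 genes, were kept out of both sets. No cluster ran antisense to a gene of the 4 isotypes in any list.

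All samples were PAR-CLIP libraries of FLAG:DICER from Flp-In HEK293 T-Rex cells, a human embryonic kidney line in which a FLAG-tagged DICER gene sits at an engineered insertion site. The 3 replicates, marked T1 after the RNase that trimmed the RNA, made up a single group, with no library from untagged cells and no measure of RNA abundance. In PAR-CLIP a photoreactive uridine analogue is built into RNA, ultraviolet light links it to the bound protein, and the linked sites read as T-to-C changes. A cluster is a run of overlapping reads, so its width does not show that any single RNA was that long. Whether they stem from separate cultures is not stated in the labels, so p-values below cover only the spread between these 3 samples, which may be technical.

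A tRNA is transcribed by RNA polymerase III as a precursor with a 5′ leader and a 3′ trailer. RNase P removes the leader, ELAC2 (RNase Z) cuts the trailer, and TRNT1 adds the CCA end. Where an intron interrupts the anticodon loop, the TSEN endonuclease cuts it out and the RTCB ligase joins the exons. Leucine, serine and selenocysteine tRNAs carry a long variable arm, so LeuCAA precursors that carry an intron have both. DICER is best known for cutting hairpin precursors of microRNAs.

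Replicate lists held between 595487 and 1306125 conversions and between 29416 and 111514 distinct reads. Replicate 3 was the shallowest by distinct reads. Vimentin (VIM), an intermediate filament gene that HEK293 cells express, had a cluster in all 3 replicates; of the other 5 HEK293 markers examined, NEFL had a cluster in 2 replicates, KRT8 in 1, and NEFM, INA and KRT18 in none. None of 5 markers of liver, blood, pancreas and T cells had a cluster. Such lists show bound RNA and not expression.

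Clusters on the 4 isotypes stretched over longer distances per gene than clusters on other tRNA genes did. The distance from the first to the last covered base of a gene, its span, includes uncovered gaps of up to 67 nt between clusters. It had a median of 95, 95 and 78.5 nt on the 4 isotypes in replicates 1, 2 and 3, against 65, 66 and 37 nt on other tRNA genes. The difference was 33.5 ± 6.95 nt (SD, n = 3) and lay in the same direction in each replicate. An exact two-sided sign-flip permutation test over the 3 replicates gave p = 0.25, the smallest it can give, so no difference in this design can pass 0.05. This span was taken up after it was seen that a gene could carry 1 cluster in a replicate and 2 in the next. The genes of the 4 isotypes were also more deeply read, with medians of 29, 31 and 13 distinct reads, against 21, 25 and 8 on other tRNA genes. Among genes with 20 or more distinct reads in their replicate, the difference was 30.0 ± 7.70 nt (exact permutation p = 0.25, n = 3).

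Ordered by the mean of the 3 replicate medians, the 4 intron isotypes held the top 4 places among the 46 isotypes with a cluster in every replicate. Means of the median span were 96.7 ± 45.7 nt for LeuCAA, 89.0 ± 6.24 nt for ArgTCT, 86.8 ± 21.6 nt for TyrGTA and 84.8 ± 10.8 nt for IleTAT (SD, n = 3 each). SerCGA and ThrTGT followed, at 83.2 and 82.7 nt, closer to IleTAT than the spread between replicates. The order did not repeat in single replicates. LeuCAA was first in replicates 1 and 2 and 23rd in replicate 3; TyrGTA was 2nd, 3rd and 12th; ArgTCT was 7th, 5th and 4th; IleTAT was 4th, 21st and 2nd. Each of the 4 isotypes exceeded the median of other tRNA genes in all 3 replicates (p = 0.25, adjusted p = 0.25 over the 4, exact permutation test). The ArgTCT difference was 33.0 ± 10.4 nt over all genes and 11.3 ± 4.75 nt among genes with 20 or more distinct reads. With that limit, the IleTAT differences in replicates 1, 2 and 3 were 10, 15.5 and 45.5 nt (31, 8.5 and 47 nt over all genes). For TyrGTA they were 30, 33.5 and 45 nt (36, 31.5 and 25 nt over all genes). For LeuCAA they were 39, 38 and 30.5 nt (60, 55 and 7 nt over all genes). In replicate 3 the limit kept only chr6.tRNA55-IleTAT, chr6.tRNA141-LeuCAA, chr2.tRNA2-TyrGTA and chr6.tRNA14-TyrGTA of these isotypes. Even without the limit, IleTAT had clusters on only 2 genes in replicate 3, and LeuCAA and ArgTCT on 3 each. These values thus rest on few genes. The TyrGTA difference was 30.8 ± 5.53 nt by span and 16.5 ± 11.7 nt by covered bases, which leave out the gaps between clusters of a gene.

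**Figure D1:**
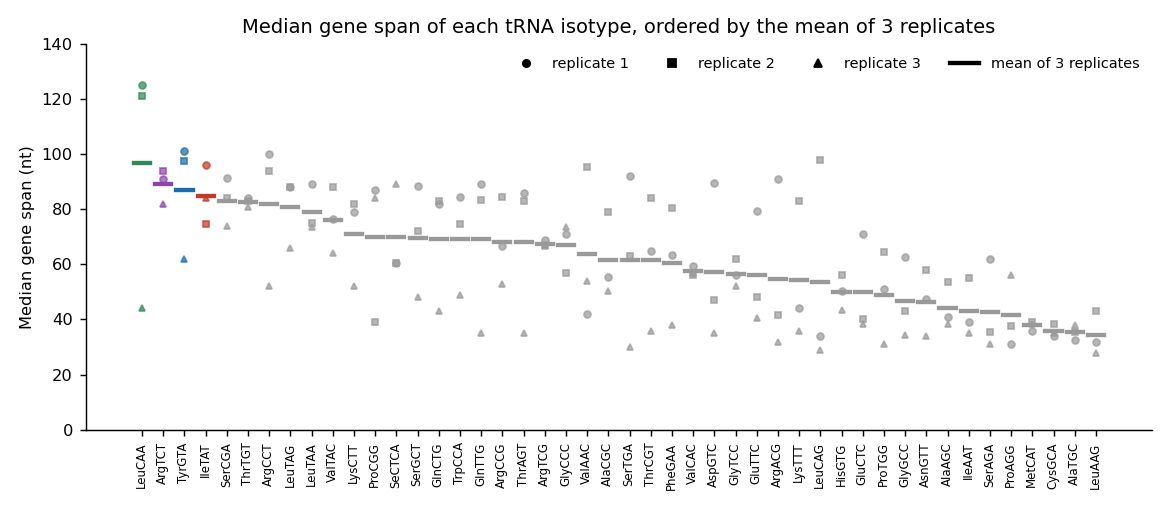
Median gene span in nt for each of the 46 tRNA isotypes with a cluster in every replicate; symbols are the 3 replicates, bars their mean, and colours mark the 4 intron isotypes. LeuCAA, ArgTCT, TyrGTA and IleTAT stand at the left with means from 96.7 to 84.8 nt, and SerCGA follows at 83.2 nt, with symbols of neighbouring isotypes overlapping.

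Against the other leucine, serine and selenocysteine tRNA genes, whose long arm also lengthens the RNA, the difference was smaller. Their median gene span was 84.5, 73 and 39 nt, so the 4 isotypes exceeded it by 10.5, 22 and 39.5 nt in replicates 1, 2 and 3 (24.0 ± 14.6 nt, exact permutation p = 0.25, n = 3). The LeuCAA genes, which share the long arm, exceeded these relatives by 40.5, 48 and 5 nt. In replicate 3 LeuCAA therefore stood close to them.

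Spans of 100 nt or more, a length above that of mature tRNAs, occurred on 12 of 25, 10 of 24 and 4 of 16 genes of the 4 isotypes in replicates 1, 2 and 3. On other tRNA genes they occurred on 27 of 268, 16 of 259 and 3 of 195. Within these, the leucine, serine and selenocysteine genes had 10 of 38, 5 of 35 and 2 of 30 (26.3%, 14.3% and 6.67%). Over all tRNA genes the share was 13.3%, 9.19% and 3.32%. By isotype, all 3 LeuCAA genes reached 100 nt in replicates 1 and 2 and none in replicate 3. TyrGTA genes did so on 7 of 13, 6 of 12 and 3 of 8, and IleTAT genes on 2 of 4, 1 of 4 and 1 of 2. No ArgTCT gene reached 100 nt, and the widest ArgTCT span in the replicates was 98 nt.

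Single clusters gave a less even picture than gene spans. The median cluster was 59, 57 and 36 nt wide on the 4 isotypes, against 37, 40 and 35.5 nt on other tRNA genes, a difference of 13.2 ± 11.3 nt (exact permutation p = 0.25, n = 3). In replicate 3 the sets differed by 0.5 nt only. With only the widest cluster of each gene the difference was 20.3 ± 16.8 nt, and in the series-wide list, a single value with no test, it was 52 nt. Clusters of 100 nt or more numbered 3, 4 and 1 on the 4 isotypes and 8, 4 and 1 on other tRNA genes, and 2.81%, 2.21% and 0.803% of all tRNA gene clusters were that wide. Genes with 2 or more clusters made up 40.4 ± 6.09% of the genes of the 4 isotypes and 24.96 ± 8.62% of other tRNA genes (SD, n = 3 each), a difference that was not tested.

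**Figure D2:**
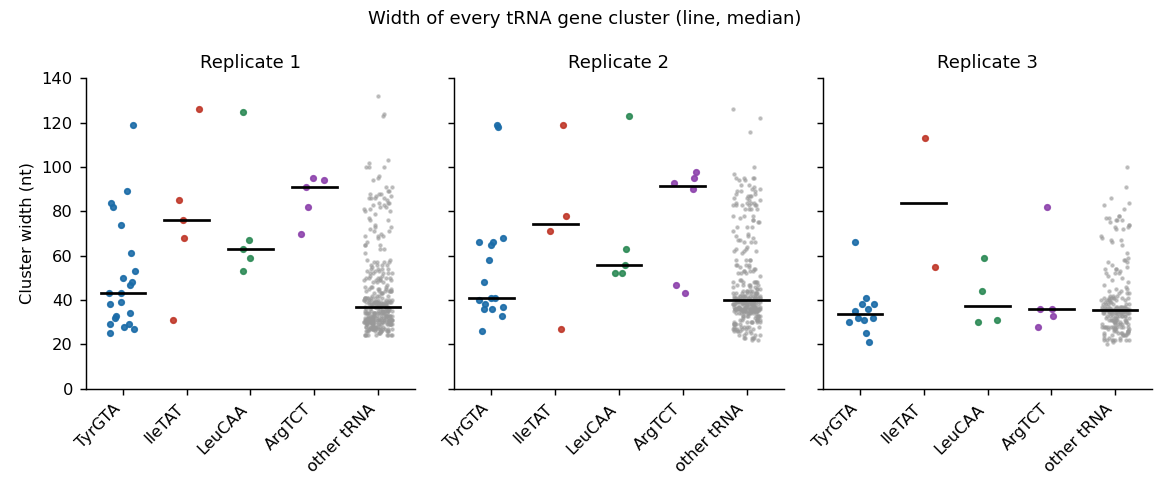
Width in nt of every tRNA gene cluster in each replicate, with black lines at the medians, for the 4 intron isotypes and, at the right, other tRNA genes. IleTAT medians lie at 76, 74.5 and 84 nt, while other tRNA genes lie at 37, 40 and 35.5 nt; ArgTCT drops to 36 nt in replicate 3.

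By the mean of the 3 replicate medians, IleTAT clusters were the widest of the 4 isotypes. Their medians were 76, 74.5 and 84 nt, the last from 2 clusters, exceeding other tRNA genes by 40.7 ± 7.15 nt. ArgTCT clusters were 91, 91.5 and 36 nt wide at the median (difference 35.3 ± 30.2 nt), above IleTAT in replicates 1 and 2. LeuCAA clusters were 63, 56 and 37.5 nt (difference 14.7 ± 12.1 nt). For these 3 isotypes the exact permutation test gave p = 0.25 and an adjusted p of 0.333 over the 4 isotypes. TyrGTA clusters, at 43, 41 and 33.5 nt, did not exceed other tRNA genes beyond the spread between replicates (1.67 ± 4.04 nt, higher in 2 of 3 replicates, exact permutation p = 0.75, adjusted p = 0.75). With only the widest cluster of each gene the TyrGTA difference was 14, 19.5 and 1 nt in replicates 1, 2 and 3. In the series-wide list, a single value, it was 65 nt. Of the TyrGTA genes that spanned 100 nt or more, 6 of 7, 4 of 6 and 3 of 3 did so with 2 or more clusters.

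The positions below are those of hg19, the build named in the submitters' processing notes. The bounds of leader, exons, intron and trailer in that build were not used here, so positions are given from the ends of the covered stretch. The crosslink centre is the position deposited as ccr for each cluster, an attribute the files do not define. Many tRNA genes have near-identical copies, and the sources used here do not give how reads matching several copies were assigned, so values of single genes are uncertain to that extent.

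**Figure D3:**
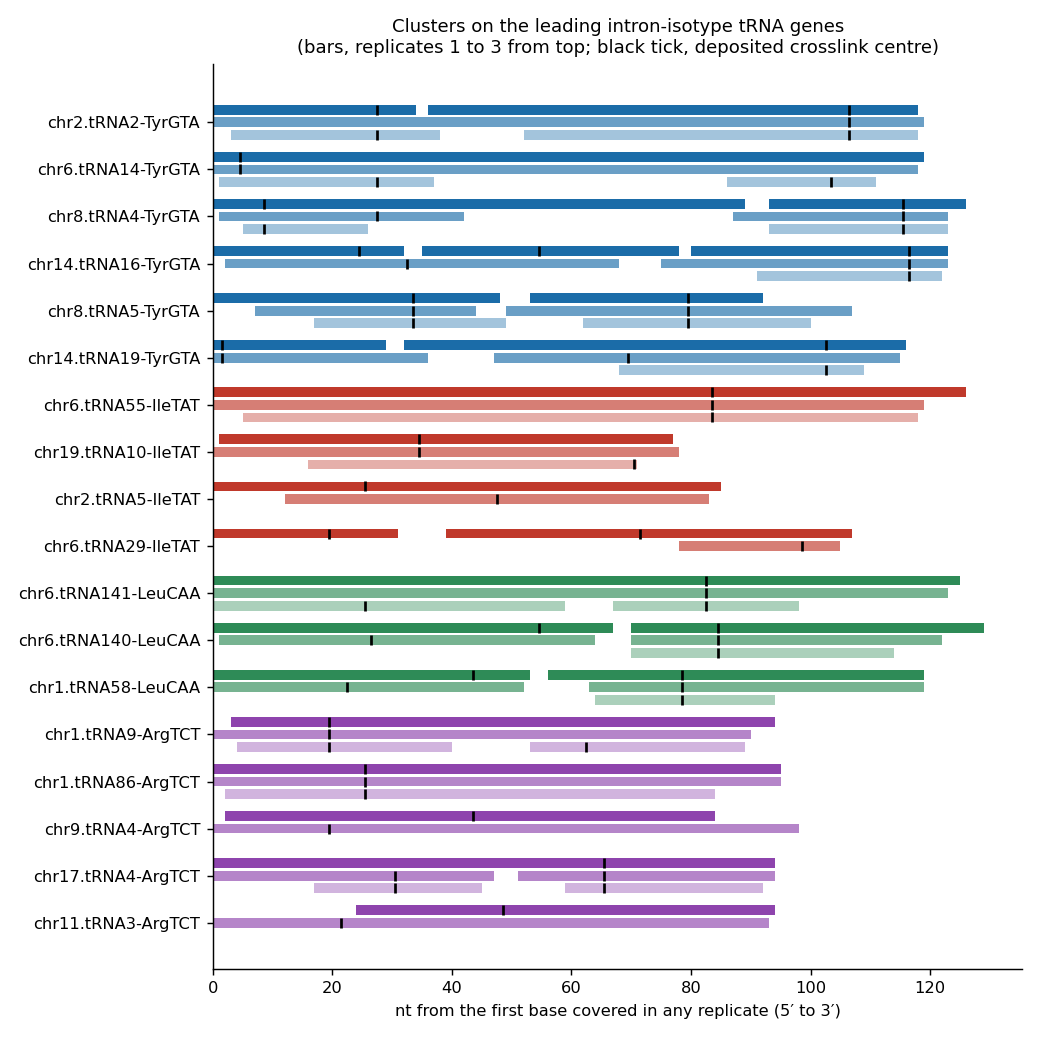
Clusters on up to 6 genes per isotype ranked by conversions in the series-wide list, drawn 5′ to 3′ in nt from the first base covered in any replicate; bars are clusters of replicates 1 to 3 from top to bottom and black ticks their crosslink centres. The IleTAT gene chr6.tRNA55 is 1 unbroken bar in each replicate, TyrGTA genes are mostly split, and the ArgTCT genes end below 100 nt.

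The TyrGTA gene with most conversions was chr2.tRNA2-TyrGTA, which RefSeq names TRY-GTA2-1. It had 16185, 5935 and 4107 conversions in replicates 1, 2 and 3, on spans of 118, 119 and 115 nt. All 3 replicates placed its crosslink centre at position 27273744 of chromosome 2, 11 or 12 nt before the 3′ end of the covered stretch. In replicate 2 a single cluster, chr2:27273638-27273756 on the plus strand, covered it. In replicate 1 the stretch was split into a 5′ cluster of 34 nt with 633 conversions and a 3′ cluster of 82 nt with 15552, and in replicate 3 into 35 nt with 296 and 66 nt with 3811. Most conversions thus lay on the 3′ cluster in both replicates with a split.

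In chr6.tRNA14-TyrGTA the crosslink centre lay at the other end. It had 2461, 1166 and 285 conversions on spans of 119, 118 and 110 nt, and in replicates 1 and 2 the centre stood 4 nt from the 5′ end of a single cluster. In replicate 3 the gene was covered by a 5′ cluster of 36 nt with 271 conversions and a 3′ cluster of 25 nt with 14.

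chr8.tRNA4-TyrGTA had 573, 162 and 119 conversions on spans of 126, 122 and 118 nt, with the centre at the same position in all 3 replicates, 10, 7 and 7 nt before the 3′ end. chr14.tRNA16-TyrGTA had 221, 73 and 54 conversions with the centre likewise shared, 6, 6 and 5 nt before the 3′ end, although in replicate 3 only the last 31 nt were covered. chr8.tRNA5-TyrGTA had 154, 67 and 160 conversions on spans of 92, 100 and 83 nt. In chr14.tRNA19-TyrGTA conversions numbered 163, 33 and 6. These 4 genes rested on 4 to 53 distinct reads per replicate, and their counts were lower in replicates 2 and 3 than in replicate 1 except for chr8.tRNA5-TyrGTA in replicate 3.

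The remaining 7 TyrGTA genes had at most 183 conversions in any replicate. chr14.tRNA18-TyrGTA (55, 67 and 123 conversions) and chr6.tRNA16-TyrGTA (57, 16 and 20) had clusters in every replicate. chr14.tRNA5-TyrGTA (183 and 15), chr6.tRNA17-TyrGTA (128 and 17), chr6.tRNA15-TyrGTA (28 and 10) and chr14.tRNA17-TyrGTA (2 and 7) had none in replicate 3, and chr8.tRNA12-TyrGTA had 94 conversions in replicate 1 only, from 3 distinct reads. chr6.tRNA15-TyrGTA stood apart in its conversions. Its cluster in replicate 2 had 2648 reads and 10 conversions, or 0.378 conversions per 100 reads, while the 4 isotypes together had 63.6 ± 6.35 (SD, n = 3). Whether those reads came from crosslinked RNA was not tested.

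IleTAT was dominated by chr6.tRNA55-IleTAT, annotated in the files as TRNAI6. Its conversions numbered 27909, 4765 and 1601 in the 3 replicates, the highest count among the 25 genes in replicate 1. A single cluster covered it in every list, chr6:27599187-27599312 on the plus strand in replicate 1, with spans of 126, 119 and 113 nt. The crosslink centre was at position 27599270 in all 3 replicates, 42, 35 and 34 nt before the 3′ end. Its cluster touched both the annotated transcript start and the annotated 3′ end in replicate 1, the start alone in replicate 2 and neither in replicate 3. In replicate 1 it was read 32097 times from 1284 distinct reads, with 31 converted positions.

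The other 3 IleTAT genes were far lower. chr19.tRNA10-IleTAT (TRI-TAT1-1) had 299, 102 and 47 conversions on spans of 76, 78 and 55 nt, with the centre shared by replicates 1 and 2 only. chr2.tRNA5-IleTAT (TRI-TAT2-1) had 219 and 9 conversions and chr6.tRNA29-IleTAT, which overlaps the annotated genes LINC00240 and TRNAI2, had 52 and 1; both lacked a cluster in replicate 3. Over the 3 genes, spans ran from 27 to 107 nt, and none covered as much as chr6.tRNA55-IleTAT in any replicate.

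All 3 LeuCAA genes had clusters in every replicate. chr6.tRNA141-LeuCAA had 1055, 1124 and 502 conversions. It was covered by single clusters of 125 and 123 nt in replicates 1 and 2, at chr6:27570337-27570461 on the minus strand in replicate 1. In replicate 3 it was split into 59 and 31 nt, and the centre stood at position 27570379 in all 3.

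chr6.tRNA140-LeuCAA had 1220, 514 and 313 conversions, in 2 clusters in replicates 1 and 2 with 3 and 6 uncovered bases between them. Its 3′ cluster began at the same base, position 27573462 on the minus strand, in all 3 replicates, and in replicate 3 this was the only cluster. In replicate 1 the 5′ cluster held more conversions than the 3′ cluster, 824 against 396, and in replicate 2 fewer, 68 against 446. chr1.tRNA58-LeuCAA had 196, 363 and 289 conversions, again with 2 clusters in replicates 1 and 2 and a 3′ cluster alone in replicate 3. Its centre lay at position 249168128 in all 3 replicates. In the series-wide list the centres of chr6.tRNA141, chr6.tRNA140 and chr1.tRNA58 lay 42, 38 and 40 nt before the 3′ end. For chr6.tRNA140-LeuCAA this rested on a near tie, with 846 conversions on the 3′ cluster and 839 on the 5′ cluster. In replicate 1 its strongest centre lay 74 nt before the 3′ end. The 3 genes thus shared a 3′ portion present in every replicate, and a 5′ portion that 2 of them lacked in the shallowest list.

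Among ArgTCT genes, chr1.tRNA9-ArgTCT was the leading member, with 8149, 8079 and 6582 conversions. By conversions not scaled to depth, this gene was the most even of the abundant genes across replicates. It was also the highest of all 25 genes in replicates 2 and 3. Its share of all conversions of the list rose, with 0.624%, 0.762% and 1.11% in replicates 1, 2 and 3. Its span was 91, 90 and 85 nt, chr1:94313128-94313218 on the plus strand in replicate 1, and the centre was at position 94313144 in all 3, 16 and 19 nt from the 5′ end of its cluster in replicates 1 and 2. In replicate 3 it was split into 2 clusters of 36 nt, of which the 5′ cluster held 6232 conversions and the 3′ cluster 350. It gave 33.5, 44.5 and 55.0 conversions per 100 reads, while chr6.tRNA55-IleTAT gave 87.0, 85.0 and 90.4.

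The second ArgTCT gene, chr1.tRNA86-ArgTCT, had 550, 312 and 117 conversions on spans of 95, 95 and 82 nt, with the centre at position 159111459 in each replicate, 25, 25 and 23 nt from the 5′ end. chr17.tRNA4-ArgTCT (TRR-TCT2-1) had 89, 55 and 51 conversions on spans of 94, 94 and 75 nt, with the strongest centre toward the 3′ side. chr9.tRNA4-ArgTCT (TRR-TCT3-1, 136 and 191 conversions) and chr11.tRNA3-ArgTCT (TRR-TCT3-2, 107 and 19) had no cluster in replicate 3. Where present, ArgTCT spans ran from 70 to 98 nt.

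**Figure D4:**
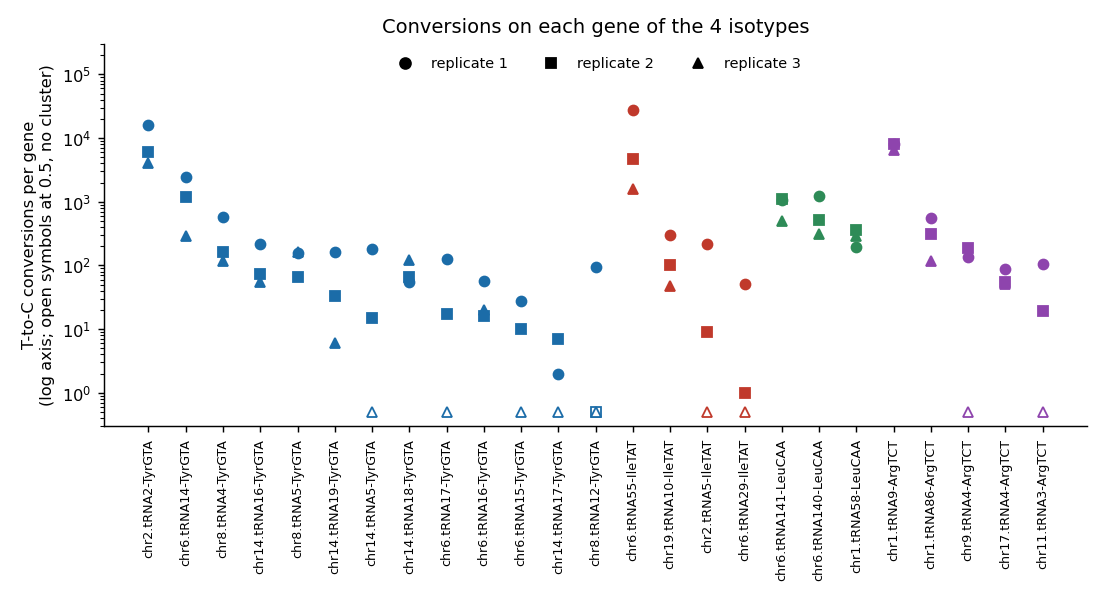
T-to-C conversions on each of the 25 genes of the 4 isotypes on a log axis, with a symbol per replicate and open symbols where a replicate had no cluster. In each isotype except LeuCAA, 1 gene stands above the others in every replicate (chr2.tRNA2-TyrGTA, chr6.tRNA55-IleTAT, chr1.tRNA9-ArgTCT), and most open symbols belong to replicate 3.

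A cluster was present in all 3 replicates for 16 of 25 genes of the 4 isotypes (64%), against 180 of 294 other tRNA genes (61.2%). Over both sets the share was 61.4%, so the 4 isotypes stood near it. The crosslink centre of the strongest cluster was at the same base in all 3 replicates for 9 of these 16 genes (56.2%), against 69 of 180 other tRNA genes (38.3%). The other leucine, serine and selenocysteine genes shared it in 15 of 28 (53.6%), close to the 4 isotypes. By isotype it was shared for 3 of 8 TyrGTA genes, 1 of 2 IleTAT, 2 of 3 LeuCAA and 3 of 3 ArgTCT genes.

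The 5′ end of the covered stretch lay within 3 nt across all 3 replicates for 4 of the 16 genes, against 89 of 180 other tRNA genes (49.4%). The 3′ end did so for 4 of the 16, against 25 of 180 (13.9%). The tolerance of 3 nt was chosen after the values were seen, and no test was made of these shares.

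Over all listed clusters, conversions per cluster were higher on the 4 isotypes in each replicate, by an uneven margin that depended on which clusters were kept. The median log2 conversions per cluster were 6.82, 5.36 and 6.87 on the 4 isotypes, against 5.36, 4.95 and 5.41 on other tRNA genes. The log2 difference averaged 1.11 ± 0.61 (exact permutation p = 0.25, n = 3). It was 0.64 ± 0.69 among clusters with 3 or more distinct reads and 0.31 ± 0.39 among those not below their list's median conversions, and in both cases negative in replicate 2 (−0.10 and −0.14). With distinct reads counted in place of conversions it was 0.42 ± 0.09. LeuCAA had the largest log2 difference, 3.20 ± 0.35, and ArgTCT 1.60 ± 0.13, both positive in all 3 replicates (p = 0.25, adjusted p = 0.5 over the 4 isotypes, exact permutation test). By distinct reads LeuCAA (1.40 ± 0.18) stood level with ArgTCT (1.37 ± 0.32) and IleTAT (1.23 ± 0.60), and among clusters not below the median conversions ArgTCT had 0.70 ± 0.28. By conversions over all clusters, IleTAT (2.42, −0.03 and 2.69) and TyrGTA (0.91, −0.20 and 0.86) were above other tRNA genes in 2 of 3 replicates (p = 0.5, adjusted p = 0.5, exact permutation test). Conversions per 100 reads, summed over each set, were 63.6 ± 6.35 on the 4 isotypes and 42.2 ± 3.51 on other tRNA genes (SD, n = 3 each). The median over genes gave overlapping replicate values, 84.9, 67.0 and 81.4 on the 4 isotypes against 59.8, 62.3 and 76.2 on other tRNA genes. The other leucine, serine and selenocysteine tRNA genes had 73.2, 81.8 and 93.1, above the 4 isotypes in replicates 2 and 3. None of these values was tested.

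Summed over clusters, the 4 isotypes held 24.5%, 7.39% and 7.76% of tRNA gene conversions, against 9.44%, 8.84% and 9.24% of tRNA gene clusters. Their share of conversions exceeded their share of clusters in replicate 1 only, by 15.1 percentage points, and fell short of it by 1.45 and 1.47 points in replicates 2 and 3 (exact permutation p = 1, n = 3). Without replicate 1 the mean difference was −1.46 points. Without chr6.tRNA55-IleTAT the differences were 5.67, −2.63 and −1.91 points, so replicate 1 was also the highest without that gene. Counted by distinct reads, the share exceeded the share of clusters in all 3 replicates, by 5.80, 3.37 and 2.05 points (exact permutation p = 0.25, n = 3). Without valine tRNAs in the comparison set, the share of conversions also exceeded that of clusters in each replicate. The differences were then 22.3, 0.669 and 0.758 points (exact permutation p = 0.25, n = 3).

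Of tRNA gene conversions, ArgTCT held 3.68%, 2.77% and 3.65% in replicates 1, 2 and 3, the most even share. TyrGTA held 8.27%, 2.42% and 2.63% and LeuCAA 1.01%, 0.640% and 0.596%. IleTAT held 11.6%, 1.56% and 0.890%, nearly all from chr6.tRNA55-IleTAT. Against all conversions of their list, the 4 isotypes held 3.07 ± 1.34% (SD, n = 3), with the highest value, 4.62%, in replicate 1.

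**Figure D5:**
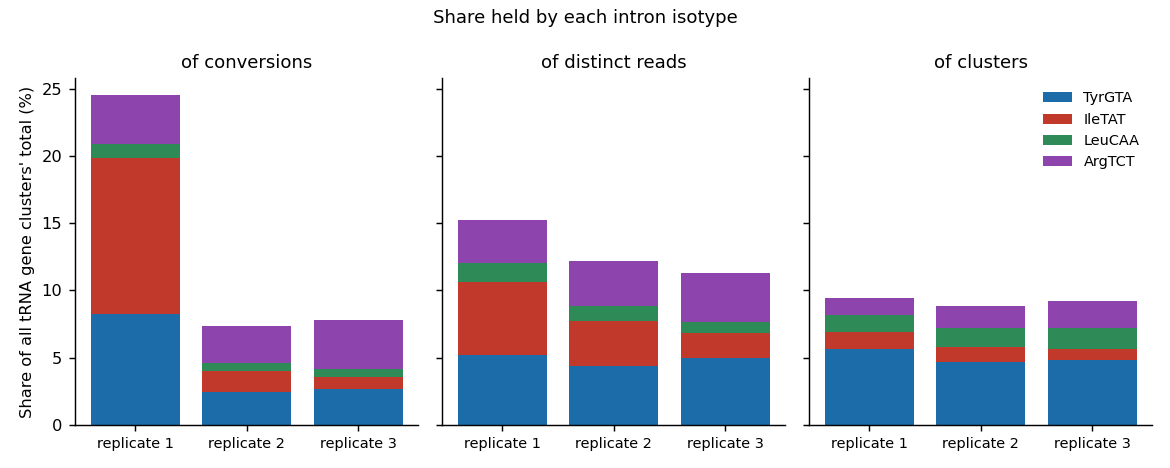
Share in percent held by each intron isotype of all tRNA gene conversions, distinct reads and clusters, for the 3 replicates, stacked by isotype. The bars of conversions reach 24.5% in replicate 1 and 7.39% and 7.76% in replicates 2 and 3, while those of clusters stay between 8.84% and 9.44%.

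Repeat copies named for the same tRNAs but without a gene id were few. The largest, of the ArgTCT type, had 1496, 2067 and 765 conversions. None of the copies without a gene id was wider than 43 nt.

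Of 54 genes that make, cut, join, modify, export or charge tRNAs, 31 had a cluster on their own RNA in any replicate. In all 3 replicates 7 had one (22.6% of the 31), near the 19.3% among all gene symbols with a cluster in any replicate. These were TRMT1, a tRNA methyltransferase, with 197, 118 and 205 conversions; the tyrosyl and isoleucyl tRNA synthetases YARS1 (45, 42 and 30) and IARS1 (91, 23 and 26); the RNA polymerase III subunits POLR3C, POLR3D and POLR3E; and BDP1, a part of its initiation factor TFIIIB. Of the splicing endonuclease genes and their partner CLP1, 5 in all, none had a cluster in all 3 replicates, and TSEN34 had 8 and 9 conversions in replicates 1 and 2. The ligase RTCB, the trailer nuclease ELAC2 and the precursor-binding La protein SSB had no cluster in any list. With 3 or more distinct reads required, TRMT1 alone remained in all 3 replicates. Not all of these clusters lay on exons. POLR3E had no exonic cluster in any list, and TRMT1 and IARS1 had none in replicate 3. POLR3C had none in replicates 1 and 3, and YARS1 none in replicates 1 and 2. POLR3D and BDP1 had an exonic cluster in every replicate.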

How the data were processed

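The deposited files are 3 cluster lists, 1 for each replicate, and a series-wide list. For every cluster the authors give a count of conversions (T read as C), a whole number not scaled to depth. Bowtie2 2.1.0 and the build hg19 are listed in the submitters' processing notes. Per the file attributes, clusters carry an estimated FDR of 5%, lists of single replicates carry the mark of a length filter, and a cluster entered the series-wide list with support from 2 or 3 libraries. In the replicate lists the highest support is 2, read here as 2 sequencing runs per replicate. Reads without molecular identifiers are not independent molecules.

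Widths, spans, medians and shares were computed per list in Python 3.11.15 from all listed clusters, with no further filter. Differences between sets were tested over the 3 replicates by an exact two-sided sign-flip permutation, with Benjamini-Hochberg adjustment over the 4 isotypes; the routines were tested on simulated data. The genes described are, per isotype, at most 6, ranked by series-wide conversions, with all members counted, and the processing genes with a cluster in all 3 replicates. The members and lists were chosen with earlier results of these data known, and gene spans, the 100 nt limit, the 20 distinct reads and the long-arm comparison after the values had been seen. Names came from the files. RefSeq names were added for 6 genes where the chromosome and anticodon left a single match in the RefSeq table, whose build differs from hg19. No tRNA sequences were used here.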

Additional observations from a re-analysis of the deposited data

How the results depend on the processing

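Of the differences between the 4 isotypes and other tRNA genes under the alternatives tried, 158 kept their direction and 4 turned. Direction here is the sign of the mean over replicates, and the alternatives reuse the same 3 replicates, so they are not independent. No p could pass 0.05 in any setting. The TyrGTA width difference ran from −0.50 to 3.50 nt when a replicate was left out. The TyrGTA difference in log2 conversions was −0.077 when clusters below their list's median were left out, and −0.057 with distinct reads in place of conversions. The share of conversions minus the share of clusters ran from −1.46 to 6.83 points when a replicate was left out, and was 7.90 ± 12.4 points without valine tRNAs. The LeuCAA share was 1.12% by distinct reads, against 0.747% by conversions. The number of tRNA processing genes with clusters in all replicates ran from 7 to 17 when a replicate was left out, with 17 without replicate 3, and was 1 with 3 or more distinct reads. The width difference of the 4 isotypes ran from 8.75 to 19.5 nt without a replicate, and the gene span difference from 29.5 to 35.8 nt. With ids named Pseudo in the comparison set, the gene span difference was 39.2 nt. Every tRNA cluster named 1 gene, so the alternative on this point gave the same values and could not turn. All differences were taken within a replicate, so the sign-flip tests were paired by replicate. Replicate 3 had 29416 distinct reads, and genes without a cluster there may lie below its depth. The bounds of introns, leaders and trailers were not used here, so a long span cannot be assigned to any of them.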
